A study of Arabidopsis thaliana with 9 samples.

Results

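The 43 genes described here encode the photosynthetic proteins made inside the plastid of Arabidopsis thaliana. They were taken by gene symbol from the array annotation. The symbols were rbcL, every symbol starting with psa, psb, pet or ndh in lower case, and atpA, atpB, atpE, atpF, atpH and atpI, each on a probe set that matches a single gene. This gave 43 of the 22746 probe sets that are not controls, 5 for photosystem I, 15 for photosystem II, 6 for the cytochrome b6f complex, 10 for the NDH complex, 6 for ATP synthase and 1 for Rubisco. The gene ndhB was left out because its probe set matches both copies of that gene. All 43 genes lie on the plastid chromosome in the TAIR10.1 gene table, and all passed the filter on dim probe sets.

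Transcripts were measured on 9 Affymetrix ATH1 arrays, 3 for each of 3 genotypes. The first genotype was a triple mutant of HAP5 genes, a T-DNA knock-out in Col-0. HAP5 genes encode NF-YC proteins, which are subunits of a transcription factor that binds CCAAT boxes, and the labels do not say which of them carry the insertions. The second was a constans mutant, whose source is given as co-SAIL with no background named, and CONSTANS is a regulator of flowering in long days. The third was wild type, given as Col-1, so that genotype and background could not be told apart. Every genotype was kept at 22 °C in days of 16 h light and 8 h dark with 110 uE m-2 s-1 of light. Whole shoots were harvested at 10 days, 14 h into the light period, at developmental stage 1.03, and the labels also list 4 days at 4 °C. No single-gene probe set carried the symbol of CONSTANS or of a HAP5 gene, so the mutated transcripts were not checked here. Whether the arrays of a genotype stand for separately grown plants is not stated, and p-values therefore describe the spread among these arrays only.

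The plastid keeps a small genome of its own, in which many genes stand in rows that are transcribed together and cut into shorter messages. A bacterial-type polymerase directed by nuclear-encoded sigma factors reads most photosynthesis genes, and a phage-type polymerase from the nucleus reads mainly genes of gene expression. The plastid-encoded subunits form the cores of both photosystems, the cytochrome complex between them, the NDH complex of cyclic electron flow, ATP synthase and the large subunit of Rubisco. Nuclear genes supply the remaining subunits. Plastid messages and ribosomal RNA, unlike nuclear messages, do not carry long stable poly(A) tails, whereas one-cycle labelling of array targets starts from a primer that binds such tails.

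The deposited values are MAS5 signals, on a linear intensity scale with the same trimmed mean of 100 on every array, and median signals were 33.2 to 37.1. The control for the 25S ribosomal RNA of the cytosol differed 72.6-fold between the highest and the lowest array. The signal was 42.4, 16.9 and 15.9 on the triple mutant arrays, 56.5, 1152 and 1079 on the constans arrays, and 22.6, 108 and 418 on the wild-type arrays. Every triple mutant array thus had less 25S signal than every constans array, while wild type 1 lay among the triple mutant arrays. The 5S ribosomal RNA control was 50.1 to 76.8 in the triple mutant, 134 to 360 in the constans mutant and 121 to 212 in wild type. Its signal on every triple mutant array was thus below that on every constans and wild-type array. The part of the 5S signal in the plastid signals was not tested. The ratio of the 3′ to the 5′ GAPDH control, a sign of RNA integrity, was 2.32 to 3.10 in the triple mutant, 2.72 to 4.46 in the constans mutant and 1.80 to 3.48 in wild type. That of actin was 18.1 to 33.4 in the triple mutant, 23.9 to 28.2 in the constans mutant and 16.9 to 24.2 in wild type, and it was highest on triple mutant 3. On a second set of control probe sets these ratios were 0.984 to 1.13 for GAPDH and 3.16 to 5.09 for actin over all 9 arrays. The part of these ratios in the plastid signals was not tested.

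**Figure D1:**
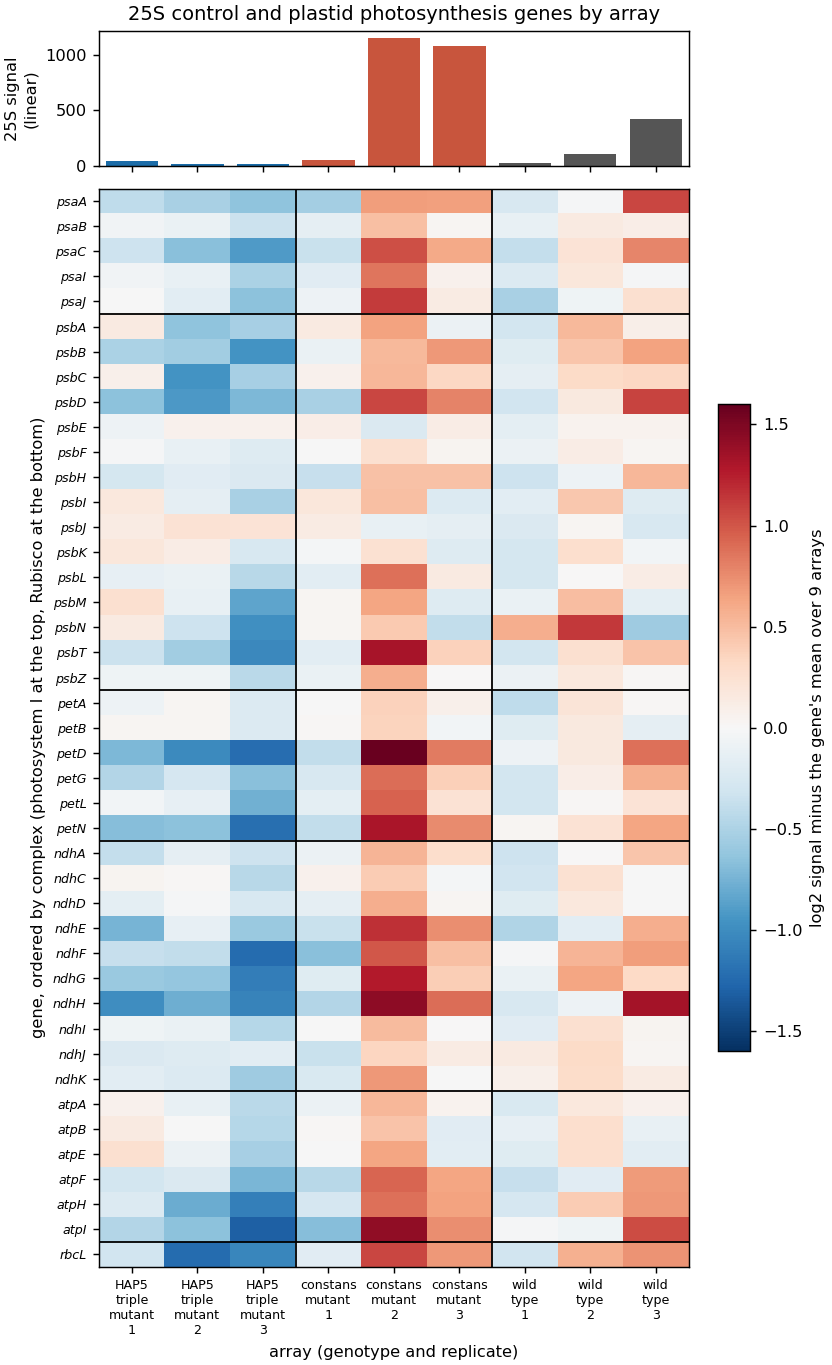
The upper bars give the linear 25S ribosomal RNA signal of each of the 9 arrays, and the colours below give the log2 signal of each of the 43 genes minus its mean over the arrays. The column of constans 2, at a 25S signal of 1152, is red for 41 genes, and that of triple mutant 3, at 15.9, is blue for 41 genes.

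Most of the 43 genes went up and down together from array to array. The log2 signal of each gene was set against its own mean over the 9 arrays, and the median of these deviations was taken in each array. This median was -0.14, -0.17 and -0.53 on the triple mutant arrays, -0.14, 0.63 and 0.14 on the constans arrays, and -0.22, 0.18 and 0.13 on the wild-type arrays. Constans 2 stood far above the other arrays, triple mutant 3 stood lowest, and the genotypes overlapped. Of the 43 genes, 35 had their highest signal in constans 2 and 31 their lowest in triple mutant 3. Averaged over arrays, the median was -0.28 ± 0.22 in the triple mutant, 0.21 ± 0.39 in the constans mutant and 0.03 ± 0.22 in wild type (SD, n = 3 each). The genes also varied more between arrays of one genotype than probe sets at large. Their median SD of log2 signal was 0.25 in the triple mutant, 0.43 in the constans mutant and 0.36 in wild type, beside 0.14, 0.19 and 0.17 over all 14173 probe sets tested. In whole shoots, fewer plastid-rich cells and less plastid RNA per cell cannot be told apart. Whether either had a part in these differences between arrays was not tested.

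The triple mutant was then set against wild type, where genotype and background could not be told apart, as stated above. No gene of the 43 passed the test in limma at a Benjamini-Hochberg adjusted p under 0.05 over all 14173 probe sets, of which 0.0917% passed. The lowest adjusted p was 0.244, for psbB. At an unadjusted p under 0.05 there were 18 genes lower and 1 higher, beside 3.12% and 3.39% of all probe sets. The mean log2 signal was lower in the triple mutant for 39 of 43 genes, against 48.6% of all probe sets. The log2 changes ran from -1.30 for petD to 0.35 for psbJ, with a median of -0.32 against 0.01 over all probe sets. With the log2 25S signal as a covariate the median was -0.11 and 27 genes were lower. All 3 triple mutant arrays lay below all 3 wild-type arrays for 12 genes, and above them for psbJ alone, beside 6.77% and 7.29% of all probe sets. The 12 genes were psaA, psbB, psbD, psbT, petD, petN, ndhF, ndhG, ndhH, ndhJ, ndhK and atpI. Both mutants were set against the same 3 wild-type arrays.

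The calls on petD and petN, of the cytochrome b6f complex, and on ndhG depended on the setting. petD had an adjusted p of 0.0469 with array weights, 0.0475 without constans 1, 0.0446 without the 3 arrays of highest 25S signal and 0.0348 when only the 2 genotypes compared were fitted. petN passed in the last 3 of these settings, at 0.0258, 0.0492 and 0.0207. Of these settings ndhG passed only when the 2 genotypes were fitted alone (0.0387), and no other gene of the 43 passed in any of the 4. Of all probe sets, 0.699% passed with array weights, 0.182% without constans 1, 0.190% without the 3 arrays and 0.201% in the fit of 2 genotypes.

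**Figure D2:**
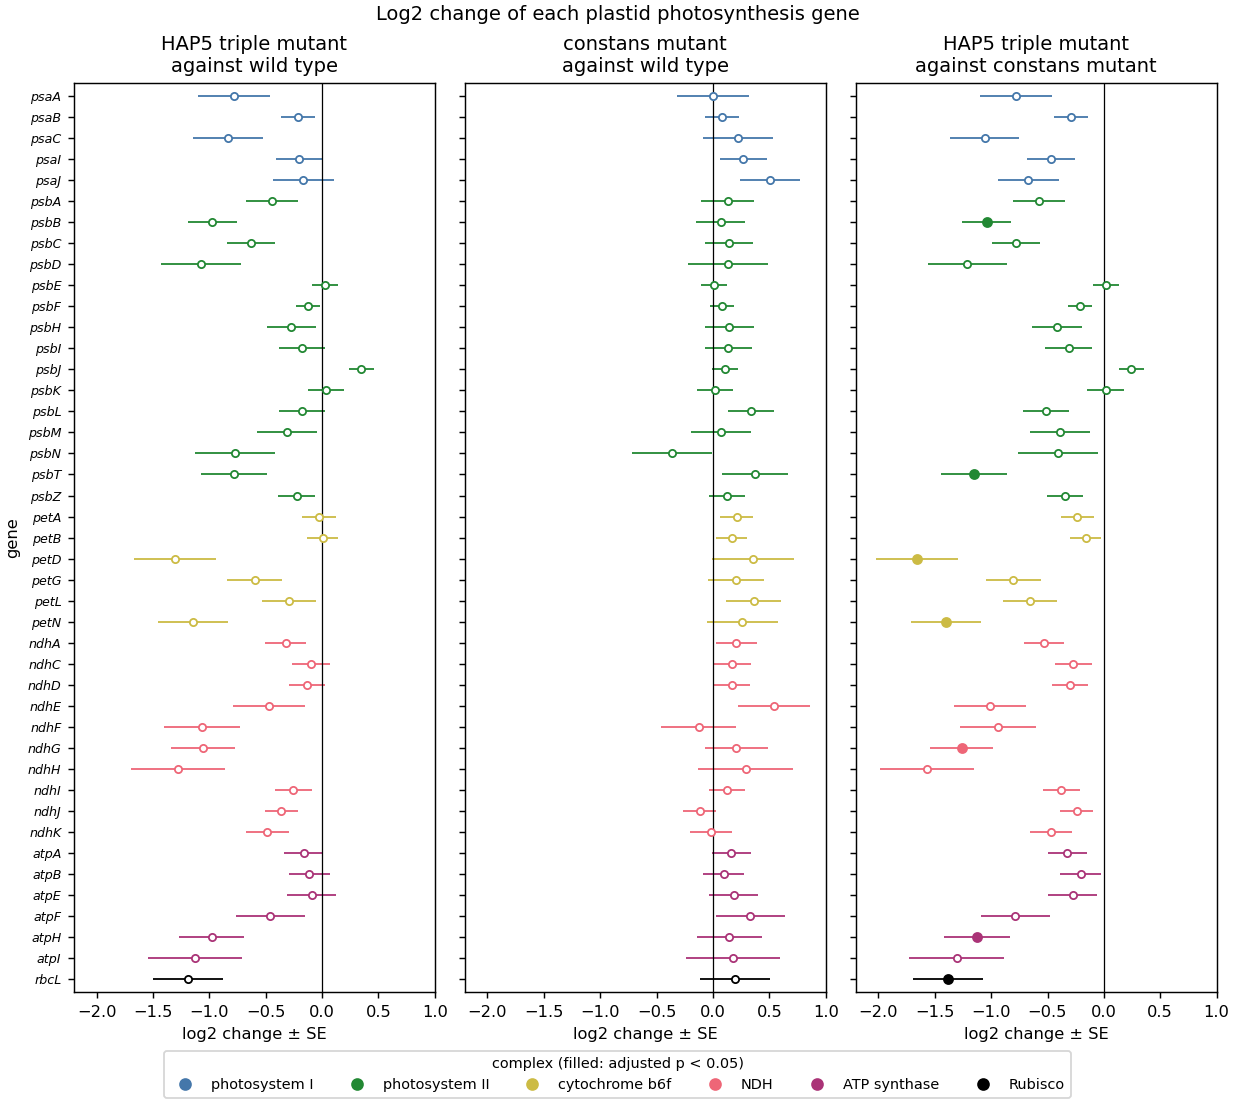
Each point is the log2 change of a gene with its SE (n = 3 arrays per genotype), for the triple mutant over wild type, the constans mutant over wild type and the triple mutant over the constans mutant. Filled points, 7 in the last panel and 0 in the first 2, mark an adjusted p under 0.05.

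Photosystem I passes electrons from plastocyanin to ferredoxin, and its 5 plastid genes all had lower means in triple mutants than in wild type plants, the median log2 change being -0.21. The signal of psaA, which encodes a core protein of the reaction centre, was 712, 658 and 602 on the triple mutant arrays, 643, 1495 and 1479.6 on the constans arrays, and 785, 928 and 1968 on the wild-type arrays. The triple mutant arrays all lay below the wild-type arrays, and constans 1 lay between triple mutant arrays. psaB, which encodes the partner of that protein, gave 5006, 4816 and 4080.0 in triple mutant shoots, 4693, 7258 and 5306 in constans shoots and 4791, 5733 and 5562 in wild-type shoots. Here the genotypes overlapped, and only constans 2 stood clearly above the other arrays. The signal of psaC, which encodes the iron-sulphur protein on the acceptor side, was 415, 328 and 278 in the triple mutant, as against 405, 1064 and 790.0 in constans plants and 399, 603 and 892 in wild type. Its 3 highest arrays were the 3 with the most 25S signal, and triple mutant 1 lay above wild type 1. For psaJ, a small membrane subunit, it was 3990.1, 3574 and 2543 on the triple mutant arrays, 3798, 8718 and 4412 on the constans arrays, and 2802, 3824 and 4779 on the wild-type arrays. Constans 2 had the highest value by far, and the other arrays of the 3 genotypes were intermixed. The changes against wild type were -0.84 ± 0.31 for psaC and -0.78 ± 0.32 for psaA (SE), with adjusted p of 0.655 and 0.720, and -0.21 ± 0.15 for psaB (0.888). The remaining gene, psaI, had -0.20 ± 0.21. Fitted with 25S as covariate, the median was -0.04 with 3 of 5 genes lower, and the changes of psaC and psaA were -0.23 ± 0.13 and -0.17 ± 0.14.

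Photosystem II splits water and holds the largest set of plastid genes, 15 in number. Their median log2 change between the triple mutant and wild type was -0.27, and 12 of 15 means were lower. The largest differences were those of psbD, psbB and psbT. psbD, which encodes the D2 protein of the reaction centre, had signals of 316, 264 and 303 in triple mutant shoots, 346, 1043 and 864 in constans shoots and 403, 554 and 1055 in wild-type shoots. All triple mutant arrays lay below the other 6 arrays. For psbB, which encodes the inner antenna protein CP47, the signals were 989.6, 959 and 724 in the triple mutant, as against 1299.9, 2020.2 and 2272 in constans plants and 1230.0, 1918 and 2198 in wild type. Again every triple mutant array lay below the other 6. psbT, which encodes a small subunit close to the reaction centre, gave 657, 571 and 408 on the triple mutant arrays, 744, 2089 and 1084 on the constans arrays, and 680.2, 1001 and 1143 on the wild-type arrays. Triple mutant 1 lay just under wild type 1, the nearest of the 6 other arrays. The log2 changes against wild type were -1.07 ± 0.35 for psbD, -0.97 ± 0.22 for psbB and -0.78 ± 0.29 for psbT, and adjusted p was 0.558, 0.244 and 0.673. With the 25S covariate the median of the 15 genes was -0.14 with 10 lower, and these 3 changes were -0.38 ± 0.14, -0.58 ± 0.13 and -0.30 ± 0.21.

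Other photosystem II genes showed no such separation. psbH, which encodes a small phosphoprotein, had signals of 1374, 1465 and 1422 in triple mutant shoots, 1288, 2303 and 2302 in constans shoots and 1323, 1580.4 and 2411 in wild-type shoots. Only constans 2, constans 3 and wild type 3 stood above the remaining arrays, which ran from 1288 to 1580.4. The brightest photosystem II probe set was that of psbM, a small subunit at the contact of the dimer, with 9708, 7499 and 4519 in the triple mutant, as against 8308, 12599 and 7025 in constans plants and 7555, 11464 and 7295 in wild type. Within each genotype its arrays spread widely, and the 3 genotypes overlapped. psbK, another small subunit, stood at 4926, 4734 and 3638 on the triple mutant arrays, 4259, 5134 and 3758 on the constans arrays, and 3583, 5246 and 4197 on the wild-type arrays. Its arrays were intermixed, with a change against wild type of 0.03 ± 0.16. Of the 9 genes not given in full, psbJ, psbN, psbA and psbC are named here after their values were seen. psbJ, a small subunit, was the only gene whose triple mutant arrays all lay above the wild-type arrays, at 1824, 1954 and 1938 in triple mutant shoots, 1827, 1529 and 1499 in constans shoots and 1416, 1698 and 1394 in wild-type shoots. Its change was 0.35 ± 0.11 (adjusted p = 0.542). psbN, which encodes an assembly factor rather than a subunit, gave 215, 154 and 98.4 in the triple mutant, as against 199, 259.9 and 148 in constans plants and 292, 426 and 131 in wild type. Wild type 1 and 2 were its highest arrays and wild type 3 was low, unlike most of the other genes. psbA and psbC, for the D1 protein and the antenna protein CP43, had changes of -0.45 ± 0.23 and -0.63 ± 0.21. The other 5 ran from -0.22 to 0.03.

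The cytochrome b6f complex moves electrons between the photosystems and pumps protons, and its 6 plastid genes held both the largest and the smallest difference from wild type. The median was -0.45. petD, which encodes subunit IV, had signals of 94.8, 76.6 and 66.7 on the triple mutant arrays, 118, 467 and 276 on the constans arrays, and 147, 173 and 286 on the wild-type arrays. All triple mutant arrays were below 100, and every other array was above. petN, a small subunit, gave 231, 237 and 161 in triple mutant shoots, 282, 918 and 628 in constans shoots and 378, 435 and 575 in wild-type shoots. It showed the same separation of the triple mutant from the other 6 arrays. In petL, also a small subunit, the signals were 649.7, 615 and 394 in the triple mutant, as against 601, 1296 and 789 in constans plants and 548, 679 and 781 in wild type. The genotypes overlapped there, with triple mutant 3 lowest and constans 2 highest. Cytochrome b6, encoded by petB, gave 5847, 5885 and 4917 on the triple mutant arrays, 5806, 7364 and 5547 on the constans arrays, and 5035, 6407 and 5204 on the wild-type arrays. Cytochrome f, encoded by petA, gave 2912, 3152 and 2646 in triple mutant shoots, 3055, 3975 and 3258 in constans shoots and 2326, 3542 and 3112 in wild-type shoots. For both genes the 3 genotypes overlapped and no array stood far from the others. The changes against wild type were -1.30 ± 0.37 for petD, -1.14 ± 0.31 for petN, -0.30 ± 0.24 for petL, -0.03 ± 0.15 for petA and 0.00 ± 0.14 for petB, and the last gene, petG, had -0.60 ± 0.25. With the 25S covariate the median was -0.06 with 3 of 6 genes lower, petD had -0.63 ± 0.20 petN had -0.60 ± 0.20, and petL turned to 0.057.

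The NDH complex returns electrons from ferredoxin to the plastoquinone pool around photosystem I. All 10 genes had lower means in triple mutants than in wild type plants, the median log2 change being -0.41. For 5 of them all triple mutant arrays lay below all wild-type arrays, beside 6.77% of all probe sets. ndhH, which encodes a soluble subunit, gave the dimmest of the 43 probe sets, with 50.7, 59.0 and 48.3 in the triple mutant, as against 73.1, 274 and 188 in constans plants and 84.9, 95.5 and 254 in wild type. The triple mutant arrays were the lowest and lay close to each other. For ndhG, a membrane subunit, signals were 405, 397 and 284 on the triple mutant arrays, 534, 1476 and 802 on the constans arrays, and 570.0, 945 and 763 on the wild-type arrays. Here too the triple mutant lay below both other genotypes on all arrays. ndhE, another membrane subunit, had 488, 747 and 540.0 in triple mutant shoots, 639, 1838 and 1367 in constans shoots and 588, 727 and 1221 in wild-type shoots. Triple mutant 2 lay above wild type 1 and 2, so the genotypes overlapped. ndhI, which encodes an iron-sulphur subunit, and ndhD, a membrane subunit, had brighter probe sets. The signals of ndhI were 5169, 5064 and 3971 in the triple mutant, as against 5394, 7756 and 5445 in constans plants and 4812, 6509.8 and 5624 in wild type. Those of ndhD were 2898, 3172 and 2696 on the triple mutant arrays, 2924, 4815 and 3285 on the constans arrays, and 2827, 3614 and 3205 on the wild-type arrays. In ndhI the triple mutant lay below the constans mutant on every array but overlapped wild type, and in ndhD all genotypes overlapped. The changes against wild type were -1.28 ± 0.42 for ndhH, -1.06 ± 0.28 for ndhG, -0.47 ± 0.32 for ndhE, -0.25 ± 0.16 for ndhI and -0.13 ± 0.16 for ndhD. Adjusted p was 0.370 for ndhG and 0.557 or more for the other 4. The 5 NDH genes not given in full ran from -1.07 for ndhF to -0.10 for ndhC. The probe set for both copies of ndhB, outside the 43 genes, had -1.67 ± 0.39 (adjusted p = 0.287). Under the 25S covariate the median of the 10 genes was -0.17 with 7 of 10 lower, ndhH had -0.52 ± 0.24 and ndhG -0.65 ± 0.24, and ndhE turned to 0.076.

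ATP synthase uses the proton gradient to make ATP, and its 6 genes all had lower means in triple mutants than in wild type, the median being -0.31. Genes for the membrane part showed the larger differences, and they also had the dimmer probe sets. Mean signals were 185 to 1773 for atpI, atpF and atpH, and 5212 to 9143 for atpA, atpB and atpE. atpI, which encodes the a subunit beside the rotor, gave 112, 98.2 and 62.5 in triple mutant shoots, 96.6, 415 and 260.0 in constans shoots and 153, 148 and 319 in wild-type shoots. The triple mutant lay below wild type on every array, and constans 1 lay among the triple mutant arrays. Signals of atpH, for the c subunit that forms the rotor ring, were 1381, 927 and 756 in the triple mutant, as against 1336, 2968 and 2522 in constans plants and 1330.0, 2138 and 2603 in wild type. Triple mutant 1 exceeded constans 1 and wild type 1, so the genotypes overlapped. atpF, for the b subunit of the stalk, had 1153, 1203 and 852 on the triple mutant arrays, 1032, 2699.8 and 2179 on the constans arrays, and 1090.2, 1242 and 2261 on the wild-type arrays. Its 3 highest arrays were again those with the most 25S signal. For the catalytic part, the beta subunit gene atpB gave 9933, 8946 and 6580.0 in triple mutant shoots, 9137, 12381 and 7954 in constans shoots and 8245, 10811 and 8299.6 in wild-type shoots. The epsilon subunit gene atpE gave 9534, 7497 and 5552 in the triple mutant, as against 7984, 12373 and 7146 in constans plants and 6997, 9646 and 7113 in wild type. Both had intermixed genotypes, with triple mutant 3 lowest and constans 2 highest. The changes were -1.13 ± 0.42 for atpI, -0.98 ± 0.29 for atpH, -0.46 ± 0.31 for atpF, -0.11 ± 0.18 for atpB and -0.09 ± 0.22 for atpE, and the alpha subunit gene atpA had -0.16 ± 0.17. The lowest adjusted p among the 6 was 0.480. With the 25S covariate the median was 0.00, and atpF turned to 0.11.

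Rubisco fixes CO2, and its large subunit is encoded by rbcL. The signals of rbcL were 514, 271 and 308 on the triple mutant arrays, 559, 1327 and 1027 on the constans arrays, and 513, 941 and 1047 on the wild-type arrays. The triple mutant lay below the constans mutant on every array, but triple mutant 1 reached wild type 1. The change against wild type was -1.19 ± 0.31, or 2.28-fold lower, with an adjusted p of 0.370, and -0.61 ± 0.17 with the 25S covariate.

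Between the constans mutant and wild type, no plastid photosynthesis gene separated the genotypes. No gene of the 43 passed the test in limma, beside 1.40% of all probe sets, none had an unadjusted p under 0.05, beside 11.3%, and the arrays of all 43 overlapped, whereas 6.97% of all probe sets were lower and 7.38% higher on every constans array. The mean was higher in the constans mutant for 38 of 43 genes, against 49.6% of all probe sets, with a median log2 change of 0.16 against 0.00. The medians by complex were 0.22 for photosystem I, 0.12 for photosystem II, 0.23 for cytochrome b6f, 0.17 for NDH and 0.17 for ATP synthase, and rbcL had 0.20 ± 0.31. The largest differences were 0.54 ± 0.32 for ndhE and 0.50 ± 0.27 for psaJ, with adjusted p of 0.583 and 0.526. In the other direction the largest was -0.36 ± 0.35, for psbN. The sign of the median rested on constans 2, since it was -0.052 without that array. It was also negative with the 25S covariate, at -0.064, and without constans 2, constans 3 and wild type 3, at -0.15, where constans 1 is the single constans array.

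Set against the constans mutant, the triple mutant had lower signals for 7 of the 43 genes at an adjusted p under 0.05, and higher signals for none. Of all probe sets, 3.38% passed and 1.45% passed with a lower signal. The 7 genes belonged to photosystem II (psbB and psbT), cytochrome b6f (petD and petN), NDH (ndhG), ATP synthase (atpH) and Rubisco (rbcL), and no photosystem I gene passed. petD had the largest change of the 43, -1.66 ± 0.37 (SE), or 3.16-fold lower, with an adjusted p of 0.0240. petN had -1.40 ± 0.31 (0.0243), rbcL -1.38 ± 0.31 (0.0260) and ndhG -1.26 ± 0.28 (0.0246). The changes of psbT, atpH and psbB were -1.15 ± 0.29 (0.0475), -1.12 ± 0.29 (0.0499) and -1.04 ± 0.22 (0.0184). In 6 of the 7 the triple mutant lay below the constans mutant on every array, as the signals above show, and in atpH triple mutant 1 exceeded constans 1. Such a separation was seen for 12 of the 43 genes, against 11.0% of all probe sets. An unadjusted p under 0.05 was met by 26 genes that were lower, beside 8.88% of all probe sets. The mean was lower in the triple mutant for 40 of 43 genes, against 50.0% of all probe sets, and the median log2 change was -0.51, against 0.00. By complex the median was -0.67 for photosystem I, -0.41 for photosystem II, -0.73 for cytochrome b6f, -0.50 for NDH and -0.56 for ATP synthase.

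The 25S signal moved with this comparison, and its ranges in the 2 mutants, 15.9 to 42.4 in the triple mutant and 56.5 to 1152 in the constans mutant, did not overlap, so that genotype and 25S signal could not be told apart. None of the 43 genes passed with no filter on dim probe sets (lowest adjusted p = 0.163, beside 0.813% of all probe sets passing) or with no trend in the limma fit (0.0816, beside 2.16%). With the 25S covariate none passed either, beside 0.931% of all probe sets, the lowest adjusted p was 0.582 and the median was -0.0068. Under that covariate petD had -0.35 ± 0.26, rbcL -0.26 ± 0.21 and psbB -0.28 ± 0.17. No gene passed without triple mutant 3, without constans 2 or without constans 3, beside 1.98%, 2.09% and 1.47% of all probe sets. Only psbB passed without triple mutant 2 (0.0493), beside 1.54%, and 23 genes passed without constans 1, beside 6.48%. With array weights 15 genes passed, beside 8.41%. Against constans 1 and the other low-25S arrays alone, that is without constans 2, constans 3 and wild type 3, the median was -0.14. That leaves a single constans array, whose spread is taken from the other genotypes, and no gene passed there, beside 0.956% of all probe sets.

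Within the genotypes, most plastid genes had higher signals on arrays with more 25S signal. A fit with genotype and log2 25S signal gave each gene a slope, the log2 change in signal for each doubling of 25S within a genotype. The slope was positive for 40 of 43 genes, against 50.1% of all probe sets, with a median of 0.12, which is a 1.09-fold higher signal for each doubling. It passed at an adjusted p under 0.05 for 12 genes, all positive, beside 0.169% of all probe sets, or 0.148% for positive slopes. An unadjusted p under 0.05 was met by 27 genes, against 12.6% of all probe sets. Of the 24 probe sets that passed across the array, 20 were plastid-encoded. These were the 12 genes, 7 genes of plastid gene expression and ndhB.

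The 12 genes came from all 6 groups. In photosystem II, psbD had 0.32 ± 0.03 (adjusted p = 8.22e-04), psbH 0.18 ± 0.03 (0.0156) and psbB 0.18 ± 0.03 (0.0202). Photosystem I held psaC with 0.28 ± 0.03 (8.22e-04) and psaA with 0.28 ± 0.03 (1.78e-03). In ATP synthase the 3 genes of the membrane part passed, atpI with 0.35 ± 0.06 (0.0202), atpF with 0.26 ± 0.04 (7.77e-03) and atpH with 0.25 ± 0.03 (3.17e-03). On brighter probe sets, atpA, atpB and atpE had 0.10 ± 0.04, 0.04 ± 0.05 and 0.06 ± 0.05. Cytochrome b6f held petD with 0.31 ± 0.05 (9.42e-03) and petN with 0.25 ± 0.04 (0.0459), and NDH held ndhH with 0.35 ± 0.05 (0.0156). The slope of rbcL was 0.27 ± 0.04 (7.77e-03). The 3 genes of negative slope were psbN, psbJ and psbE, with -0.07 ± 0.09, -0.04 ± 0.03 and -0.01 ± 0.03. Of the 7 genes called between the 2 mutants, 5 also passed for the slope.

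**Figure D3:**
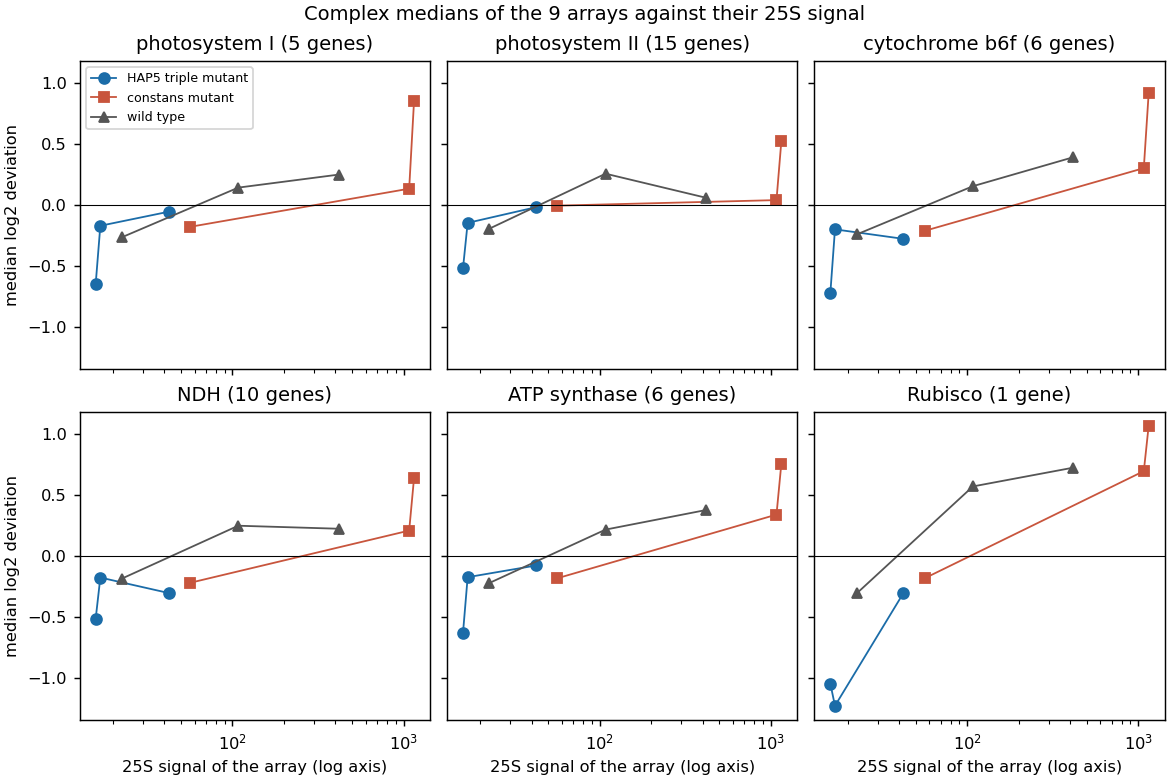
For each complex, the median log2 deviation of its genes from their means over 9 arrays (vertical axis) is set against the 25S signal of the array on a log axis, with the 3 arrays of a genotype joined in order of 25S. In photosystem I, photosystem II and cytochrome b6f, the constans arrays at 1079 and 1152 differ more than those at 56.5 and 1079. The same holds narrowly in NDH.

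The calls on the slope depended on the settings. With no filter or with no trend no probe set of the array passed, and the lowest adjusted p of the 43 genes was 0.285 and 0.141. Without constans 1 no probe set of the array passed either, the 43 genes included. Leaving out constans 2 and 3 together was an alternative added after the data were seen. It leaves a single constans array, and the median slope was 0.12. Without the 3 arrays of highest 25S signal only rbcL passed, beside 0.0422% of all probe sets, and the median was 0.18 with 43 of 43 slopes positive. Without wild type 3 the genes that passed were rbcL, psaC, psbD, atpH and psaA, beside 0.0774% of all probe sets. The median slope was lowest without constans 2, at 0.085, where 8 genes passed, beside 0.106%.

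Pairs of arrays within a genotype show the sizes directly. Constans 2 had 20.4 times the 25S signal of constans 1, and the median ratio of the 43 genes was 1.65, with 41 above 1. Constans 3 had 19.1 times that of constans 1, yet the median ratio was 1.20, with 33 above 1. Wild type 3 had 18.5 times that of wild type 1, with a median ratio of 1.34 and 38 above 1. Triple mutant 1 had 2.67 times that of triple mutant 3, and here the median was 1.37 with 37 above 1. Triple mutant 2, at 16.9, lay near triple mutant 3, at 15.9, in 25S signal. Yet their median deviations were -0.17 and -0.53, beside -0.14 on triple mutant 1, at 42.4. Similar ratios of 25S signal thus went with different ratios of plastid signal.

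Genes with dim probe sets had the steeper slopes, and the larger differences of the triple mutant from both other genotypes. Mean signals ran from 125 for ndhH to 9143 for atpB, but brightness depends on the probes and does not rank transcripts. Across the 43 genes, which share the 9 arrays and are not independent, Spearman's rho between the mean log2 signal and the slope was -0.64. Between the mean log2 signal and the change of the triple mutant over wild type it was 0.75, for the triple over the constans mutant, which shares the triple mutant arrays, 0.70, and for the constans mutant over wild type -0.20. The 17 genes under a mean signal of 1000, a split chosen after the values were seen, had a median slope of 0.25, against 0.07 for the 26 genes at or above it. Their median change was -0.84, against -0.19, for the triple mutant over wild type, -1.06, against -0.34, for the triple over the constans mutant, and 0.21, against 0.14, for the constans mutant over wild type. Of the 12 genes called for the slope, 7 were in the dim group.

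**Figure D4:**
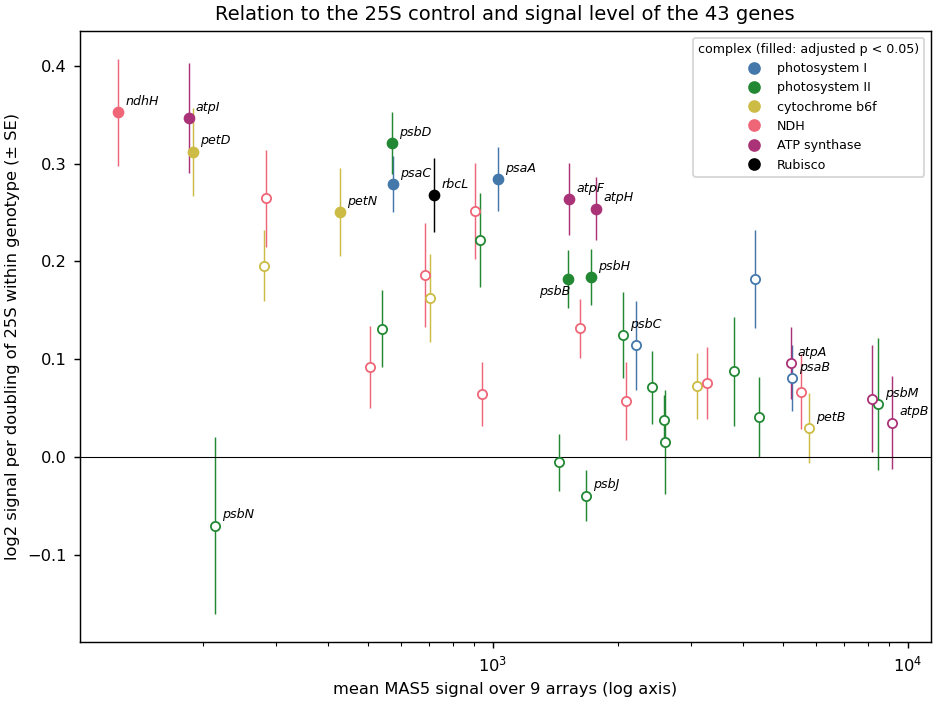
The slope on log2 25S signal within genotype, with its SE (9 arrays), is plotted against the mean MAS5 signal of each of the 43 genes on a log axis. Filled points passed at an adjusted p under 0.05, and slopes are lower at brighter probe sets, from 0.35 for ndhH to 0.04 for atpB, with psbN at -0.07 as the main exception.

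Genes that stand next to each other in the plastid genome, and are known to share transcripts, did not always share these values. In the row psbB, psbT, psbH, petB and petD, slopes ran from 0.03 ± 0.04 for petB to 0.31 ± 0.05 for petD, and the changes of the triple mutant against wild type from 0.00 ± 0.14 to -1.30 ± 0.37 for the same genes. psaA and psaB had slopes of 0.28 ± 0.03 and 0.08 ± 0.03. psbD and psbC, whose reading frames overlap, had 0.32 ± 0.03 and 0.12 ± 0.04. In the row atpI, atpH, atpF and atpA, slopes lay between 0.10 ± 0.04 for atpA and 0.35 ± 0.06 for atpI, and in the long row from ndhH to ndhD between 0.07 ± 0.04 for ndhI and 0.35 ± 0.05 for ndhH. In the row psbE, psbF, psbL and psbJ, slopes ran from -0.04 ± 0.03 for psbJ to 0.13 ± 0.04 for psbL. The remaining rows were more even, with 0.04 ± 0.05 for atpB beside 0.06 ± 0.05 for atpE, and 0.06 to 0.09 over ndhC, ndhK and ndhJ. They also included 0.04 ± 0.04 for psbK beside 0.02 ± 0.05 for psbI, and 0.16 ± 0.04 for petL beside 0.20 ± 0.04 for petG. psbN lies among the psbB row on the opposite strand, and its slope was -0.07 ± 0.09 beside 0.18 ± 0.03 for psbH. Differences between the slopes of neighbours were not tested.

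**Figure D5:**
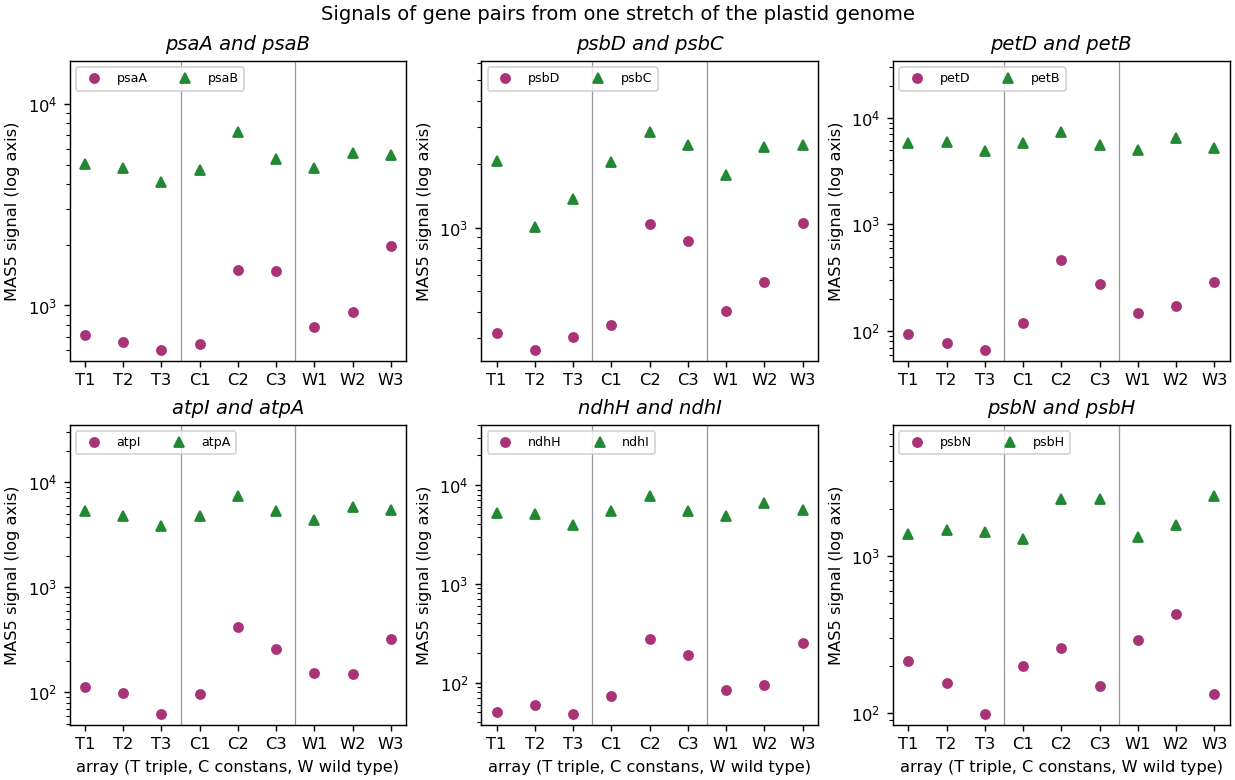
MAS5 signals (log axis) of 6 pairs of genes from one stretch of the plastid genome on the 9 arrays, with T for the triple mutant, C for the constans mutant and W for wild type. In each of the first 5 pairs the dimmer gene differs more between arrays, as for petD from 66.7 to 467 beside petB from 4917 to 7364. The 6 pairs are a selection, and some neighbours not drawn went the other way. The dimmer petG differed 2.94-fold between its highest and lowest array, beside 3.29-fold for petL. Signals of the 2 genes of a pair are not comparable as levels.

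Other gene lists were read in the same fits. The 26 plastid genes of transcription, translation and other functions had a median log2 change of -0.38 for the triple mutant over wild type, 0.19 for the constans mutant over wild type and -0.51 for the triple over the constans mutant. In these comparisons 0, 0 and 2 of them passed, and their median slope on 25S was 0.13. The largest change was that of rps14, a protein of the small plastid ribosomal subunit, at -2.07 ± 0.48 between the 2 mutants (adjusted p = 0.0299). The 15 tested genes of the mitochondrial genome had medians of -0.11, 0.12 and -0.32 in the same 3 comparisons, with 0 passing, and a median slope of 0.10. By comparison, 10 nuclear genes of photosynthesis had medians of 0.03, 0.07 and -0.03 and a slope of 0.01. One of them passed between the 2 mutants, the light-harvesting gene LHCB4.2, at -0.43 ± 0.10 (0.0300). The 11 tested nuclear regulators of plastid transcripts had medians of -0.08, -0.14 and 0.10, a median slope of -0.0047 and 0 passing. The differences between the lists were not tested.

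Markers of shoot tissue were present on all arrays. Only 4 of 20 shoot markers had a single-gene probe set, and RCA, which encodes Rubisco activase, gave 4944 to 6099 in the triple mutant, 5376 to 6641 in the constans mutant and 5395 to 6021 in wild type. LHCB4.1, for a light-harvesting protein, and PRK, for phosphoribulokinase, overlapped between genotypes too, at 4382 to 6126 and 3236 to 4449 over all arrays. LHCB4.2 did not overlap between the triple mutant and the others, with 775 to 842 in the triple mutant, 991 to 1177 in the constans mutant and 853 to 995 in wild type. The sum of the 4, none at 0, was 13370 to 17282 in the triple mutant, 14513 to 17616 in the constans mutant and 14500 to 17071 in wild type. Of 12 root markers, 3 had one. PYK10 gave 174 to 222 in the triple mutant, 249 to 286 in the constans mutant and 193 to 215 in wild type, and EXPA7 and EXPA18, which mark root hairs, stayed at 15.0 or below on all arrays. Summed over the 3 root markers, none of which was at 0, the signal was 189 to 229 in the triple mutant, 256 to 293 in the constans mutant and 201 to 225 in wild type. Nearly all of this sum came from PYK10, and EXPA7 was at 0.632 on constans 1, under the floor of 1.03. The constans arrays were thus highest for PYK10 and for the sum that it carries, and the part of these markers in the values above was not tested. None of the 6 flower markers had a single-gene probe set.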

How the data were processed

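Total RNA of whole shoots was hybridised to 9 ATH1 arrays as biotin-labelled one-cycle targets, per the labels. The deposited values are MAS5 signals on a linear intensity scale, made with MAS5 and GCOS per the submitters' processing notes, with no version given in the sources used here. The files name no genome build, so no positions are given. Arrays have no sequencing depth, and their number, 3 per genotype, limits the precision.

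The 64 control probe sets stayed out of the tests. Signals under the pooled 10th percentile, 1.03, were raised to it and log2 was taken of the deposited intensities. Probe sets were kept if the mean log2 signal of any genotype was at or above the 40th percentile, equal to a signal of 18.6, and 14173 of 22746 were then tested. One limma model (version 3.58.1, R 4.3.3; lmFit, then eBayes with a trend) covered all 9 arrays, with 6 residual degrees of freedom. The slope came from a fit with genotype and log2 25S signal, which leaves 5. P-values were adjusted by Benjamini-Hochberg over all tested probe sets. The fits were also run on simulated data with independent noise for each probe set and no floor or filter. Because the plastid genes moved together from array to array, that run does not bear on their calls. Tables and plots used Python 3.11.15, pandas 2.3.3 and matplotlib 3.10.9.

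The genes, the lists, the 25S covariate and the setting without constans 2, constans 3 and wild type 3 were chosen with earlier results of these data known. The genes given in full were rbcL, in each complex the 2 with the highest mean signal and the 1 of largest change in each comparison, and up to 10 called genes in each test. Other genes named were chosen after their values were seen. Mitochondrial genes were matched by symbol, since their identifiers could not be matched, and 2 entries of the regulator list were dropped because their symbols name other genes. Gene names came from the platform annotation. Alternative settings dropped the floor, the filter, the trend or the sharing of the spread with the third genotype, or added a pseudocount of 6.60, a stricter filter (60th percentile), quantile normalization, centring on array medians, array weights, the replicate number as a block or the 25S covariate. Others adjusted over single-gene probe sets or left out 1 or several arrays.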

Additional observations from a re-analysis of the deposited data

How the results depend on the processing

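The median change was negative under every alternative for the triple mutant against wild type (-0.46 to -0.11) and for the triple mutant against the constans mutant (-0.70 to -0.0068). Leaving out 1 array gave -0.46 to -0.25 for the first, -0.70 to -0.28 for the second and -0.052 to 0.31 for the constans mutant against wild type. The last reversed to -0.064 with the 25S covariate, to -0.15 without constans 2, constans 3 and wild type 3, and to -0.052 without constans 2. For the triple mutant against the constans mutant the median was -0.0068 with the covariate and -0.14 without those 3 arrays. The cause was not tested in any of these cases.

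Counts of called genes moved more. For the triple mutant against wild type, 0 genes passed except 1 with array weights, 2 without the 3 high-25S arrays and 3 when only the 2 genotypes were fitted, and leaving out 1 array gave 0 to 2. For the constans mutant against wild type 0 passed under every alternative. For the triple mutant against the constans mutant, 7 passed, but 0 with no filter, no trend, the 25S covariate or without the 3 high-25S arrays, 15 with array weights, and 0 to 23 when 1 array was left out (1 without triple mutant 2, 0 without triple mutant 3, constans 2 or constans 3, 23 without constans 1). For the slope, 12 passed, but 0 with no filter or with no trend, where 0 of all probe sets passed. Leaving out 1 array gave 0 to 16 genes. There were 0 without constans 1, where 0 of all probe sets passed, and 5 without wild type 3, beside 0.0774%. The 16 were found without triple mutant 1, beside 0.507% of all probe sets. The median slope was 0.12 without constans 2 and 3 together (chosen after seeing the data) and 0.18 without the 3 high-25S arrays. Both of these leave a single constans array.

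Correlations of arrays' deviations from their genotype means ran from -0.04 to 0.23 for same-numbered arrays. For arrays of different number they ran from -0.32 to 0.20. These ranges overlap and cannot decide whether the replicate numbers pair the arrays. With the replicate number as a block, 13 genes passed between the 2 mutants, beside 4.66% of all probe sets. The slope passed for 15 genes, beside 0.191%. Against wild type 0 genes passed in either mutant, where the shares of all probe sets were 0.141% (triple mutant) and 1.65% (constans mutant).

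Over the genes given in full, 2043 values kept their side of the threshold, and their direction unless the reported value was uncalled and within 1 SE of 0, 147 lost a call, 42 gained one and 30 reversed. With the 25S covariate, the triple mutant against wild type turned to 0.057 for petL, 0.076 for ndhE, 0.11 for atpF and 0.13 for psbH, and the constans mutant against wild type to -0.080 for psbT and -0.21 for atpF. The triple mutant against the constans mutant turned to 0.047 for psaB, 0.10 for psaJ, 0.11 for psaC, 0.42 for psaA, 0.14 for psbD, 0.36 for psbH, 0.071 for petA, 0.028 for petL, 0.018 for ndhD, 0.047 for ndhE, 0.15 for atpI and 0.32 for atpF. Without the 3 high-25S arrays it turned to 0.030 for psaA, 0.14 for psbH and 0.035 for atpF, and the constans mutant against wild type to -0.15 for psbT, -0.021 for petL, -0.13 for ndhD, -0.033 for ndhE and -0.17 for atpF. Without constans 2 the constans mutant against wild type gave -0.034 for psbT and -0.046 for ndhD, and leaving out each array in turn gave -0.034 to 0.71 and -0.046 to 0.31 for these genes. Quantile normalization turned the triple mutant against the constans mutant to 0.037 for atpB and 0.0036 for atpE. All 43 genes were above the filter's signal of 18.6, but ndhH, petD and atpI, among the genes of largest change, came down to 48.3, 66.7 and 62.5 in the triple mutant, beside array medians of 33.2 to 37.1, so signal over background limits these most. In addition, 3 arrays per genotype and a 25S signal that differs between the genotypes limit every comparison.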
